A study of Mus musculus with 11 samples.

Results

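The levels of 7 membrane genes were followed across mouse bone marrow cells. The genes were Procr, Cd34, Cd27, Pdzk1ip1, Tmem176a, Tmem176b and Ctnnal1. They were chosen as known stem cell markers, or as membrane genes whose signal was highest in haemopoietic stem cells (HSC) on these same arrays, and they are 7 of the 19057 named genes on the array, carried by 13 of its 34885 probes with a single gene name. Because the HSC level chose them, their levels in HSC are given as a description, and tests are given between the other cell groups alone. All 7 passed the filter on dim genes, which asked for detection on at least 2 arrays and kept 11381 genes, but Procr passed it only through HSC.

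Cells of C57BL/6 mice were taken by flow sorting from endosteal bone marrow, the zone next to the bone surface, and their total RNA was hybridised to 11 Illumina MouseWG-6 v2 bead arrays. The 4 groups, by sample title, were HSC, sorted as LSK CD150+ CD48- (n = 2), and 3 fractions of FITC-AGE+ cells, with 3 arrays each: CD31+ B220+ cells, then CD31+ cells without B220 (CD31+ B220-), then cells with neither marker (CD31- B220-). LSK cells lack lineage markers and carry Sca-1 and Kit. The labels call all 3 fractions scavenger endothelial cells. CD31 is a junction protein of endothelium that many blood cells also carry, and B220 is a form of CD45 found on B lineage cells. For the last fraction the source name says HSC where the title does not, and the title was used. Some RNA was pooled before labelling, without a statement of which, and nothing says that replicates came from separate animals, so the p-values measure the spread between these samples, which may be technical.

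HSC sit at the top of the blood lineage and are isolated by combinations of surface proteins, several of which are shared with endothelium or with committed blood cells. Procr encodes the endothelial protein C receptor and marks mouse HSC. CD34 is a sialomucin of progenitors and endothelium that adult mouse HSC carry at low levels, and CD27 is a receptor of the tumour necrosis factor (TNF) receptor family found on HSC, progenitors and lymphocytes. Pdzk1ip1 encodes a small membrane protein that binds PDZ domain proteins, Tmem176a and Tmem176b encode related multi-pass membrane proteins related to the MS4A family, and Ctnnal1 encodes alpha-catulin, a relative of alpha-catenin and vinculin at the inner face of the membrane.

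HSC arrays were brighter, with a raw 75th percentile of 376.8 to 450.5 against 145.9 to 211.6 on the fraction arrays, so cell type and array brightness cannot be told apart in comparisons with HSC. On each HSC array 8 of 9 HSC transcription factor and regulator genes were detected, Hlf being detected on neither, and their summed normalized signal on the linear scale was 16340 to 17320 against at most 1875 on any fraction array. The endothelial label had less support from markers: of 11 endothelial genes, 2 to 3 were detected per CD31+ B220+ array, 7 to 8 per CD31+ B220- array and 2 to 4 per CD31- B220- array. Lyve1 was detected in no group, Stab2, Tie1, Tek and Emcn in neither CD31+ B220+ nor CD31- B220- cells, and Cdh5 not in CD31- B220- cells. HSC arrays detected 6 of the same 11, Stab2, Tie1, Tek and Emcn among them, at a summed signal of 3367 to 3979. On fraction arrays that sum was at most 2921, so the list does not set endothelium apart from HSC. The fractions are therefore called by their gates.

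Outside HSC the 7 genes did not share a pattern. Cd34 and Cd27 had their highest fraction level in CD31+ B220- cells, Pdzk1ip1 in CD31- B220- cells, Tmem176a and Tmem176b in both B220- fractions, and Ctnnal1 in CD31+ B220+ cells, while Procr was not detected on 8 of the 9 fraction arrays. Between CD31+ B220+ and CD31+ B220- cells 0 genes were higher and 5 lower in the B220+ fraction, in a comparison that called 35.3% of all genes, 16.8% higher and 18.5% lower. Between CD31+ B220+ and CD31- B220- cells 2 were higher and 3 lower in the B220+ fraction (of all genes 44.8% were called, 22.4% higher and 22.5% lower), and between CD31+ B220- and CD31- B220- cells 3 were higher and 1 lower in the CD31+ fraction (28.1%, with 16% higher and 12.1% lower). Median log2 differences of the 7 genes in these comparisons were -2.49, -0.46 and 0.57, beside 0.01, 0.02 and 0.07 over all genes. The value of -0.46 is that of Procr itself, which was near the floor, so it is not read as a shift of the 7. The F-test over the 3 fractions called 6 of the 7, and 52.0% of all genes. The gene it did not call was Procr, which passed the filter only through HSC, so its place in these counts and medians is not read. The 3 comparisons share groups, so they are not independent of one another. In sorted cell populations measured in bulk, fewer cells of a type and less RNA per cell cannot be told apart.

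**Figure D1:**
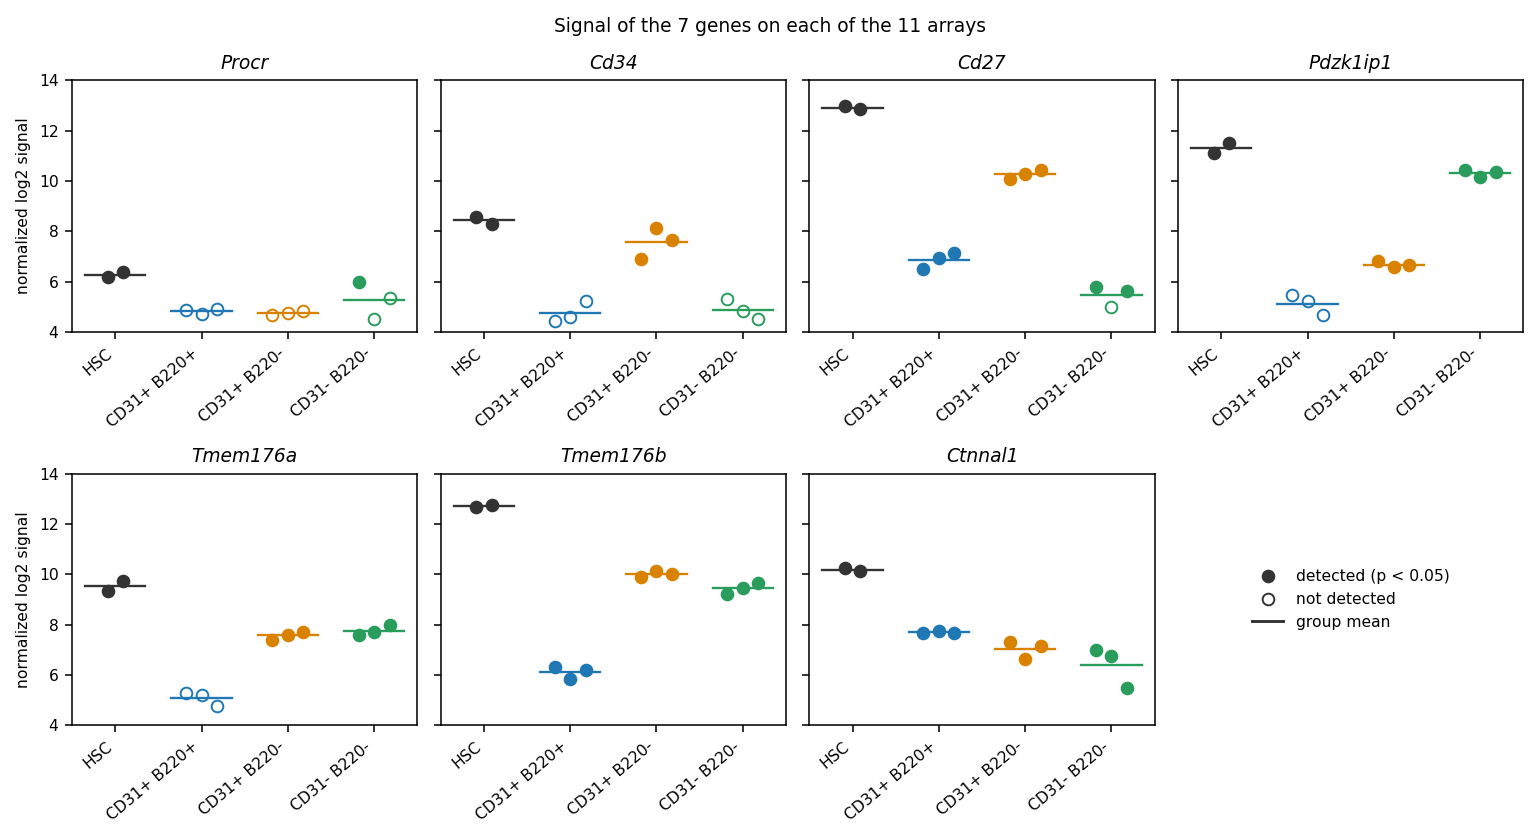
Normalized log2 signal of the 7 genes (1 panel per gene, probe with the highest mean) on each of the 11 arrays, grouped by sort gate. Filled points are arrays that detected the gene, open points arrays that did not, and bars are group means. Both HSC points lie above all 9 fraction points in every panel, by 0.16 for Cd34 and 2.57 for Tmem176b.

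Both HSC arrays lay above all 9 fraction arrays for each of the 7, which reflects how they were chosen, a pattern that 20.5% of all genes shared. The size of the gap differed between genes. The lower HSC array exceeded the highest fraction array by 0.16 on the log2 scale for Cd34, 0.18 for Procr, 0.68 for Pdzk1ip1, 1.39 for Tmem176a, 2.38 for Ctnnal1, 2.41 for Cd27 and 2.57 for Tmem176b. Under quantile normalization it thus rested, for Cd34 and Procr, on a step smaller than the spread within a fraction. When arrays were scaled to a common median instead, these steps were 1.69 for Cd34 and 1.21 for Procr. The folds from HSC given below for the 7 genes are after quantile normalization. The comparisons with HSC called 44.2% of all genes for CD31+ B220+, 41.3% for CD31+ B220- and 49.2% for CD31- B220- cells, and nothing is read from the 7 genes against these shares.

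Procr was the dimmest of the 7 relative to background. Its brighter probe gave log2 signals of 6.17 and 6.37 on the HSC arrays, both detected. The CD31+ B220+ arrays gave 4.87, 4.71 and 4.90 and the CD31+ B220- arrays 4.69, 4.74 and 4.83, none of them detected. In CD31- B220- cells the values were 5.99, 4.52 and 5.33, of which the first was detected. That fraction had the widest spread, with a mean of 5.28 ± 0.74 (SD, n = 3), and its highest array came within 0.18 of the lower HSC array. HSC exceeded CD31+ B220+ cells at least 1.68-fold and CD31+ B220- cells at least 1.83-fold, both lower bounds because these fractions had no detected array. No difference between fractions was called, with log2 differences of 0.07, -0.46 and -0.53 and limma adjusted p-values of 0.885, 0.241 and 0.22. Procr passed the filter only through HSC, so the absence of a call is not read as a result. Without CD31- B220- replicate 2, the lowest array of its group, the other fractions were lower than CD31- B220- cells by called amounts, with differences of -0.87 (adjusted p = 0.00981) and -0.94 (adjusted p = 0.0116). Those values rest on 1 detected array, since no array of the other fractions detected Procr, and they are not read as a difference. The second Procr probe was detected on no array.

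The protein C and thrombin receptor list holds genes set beside Procr, among them Cd1d1, a structural relative. Of 7 tested, 2 were higher and 4 lower in CD31+ B220+ than in CD31+ B220- cells (16.8% and 18.5% of all genes), 2 higher and 2 lower than in CD31- B220- cells (22.4% and 22.5%), and 4 were higher and 0 lower in CD31+ B220- than in CD31- B220- cells (16% and 12.1%). Thbd, the thrombomodulin gene whose product lets thrombin activate protein C, fell from 8.69 in CD31+ B220+ through 7.77 in CD31+ B220- to 6.80 in CD31- B220- cells, and every step was called (adjusted p = 0.00764 and 0.00731). F2r, the main thrombin receptor PAR1, was detected on no CD31+ B220+ array and was at least 20.5-fold lower there than in CD31+ B220- cells (adjusted p = 7.49e-08). F2rl3, the thrombin receptor PAR4, was detected on all 3 CD31+ B220- arrays and on no array of the other fractions, at least 4.29-fold and 4.40-fold above them. Cd1d1, a lipid-presenting protein of the same structural family as the protein C receptor, was 11.1-fold higher in CD31+ B220+ than in CD31- B220- cells (adjusted p = 2.55e-07).

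Cd34 separated CD31+ B220- cells from the other fractions. The HSC arrays stood at 8.58 and 8.29. CD31+ B220- arrays came next at 6.91, 8.13 and 7.64, all detected. The CD31+ B220+ arrays, at 4.45, 4.60 and 5.21, and the CD31- B220- arrays, at 5.30, 4.83 and 4.52, did not detect it at all. No array of CD31+ B220- cells overlapped with either of the other fractions. The level in CD31+ B220- cells (7.56 ± 0.61, SD, n = 3) was at least 4.12-fold above CD31+ B220+ cells (log2 difference -2.80, limma adjusted p = 4.43e-05) and at least 4.23-fold above CD31- B220- cells (2.68, adjusted p = 7.86e-05). CD31+ B220+ and CD31- B220- cells were both below detection, and their difference of -0.13 (95% interval -0.83 to 0.58, adjusted p = 0.785) carries no direction. In HSC the mean of 8.44 ± 0.21 (n = 2) was 1.84-fold above that of CD31+ B220- cells under quantile normalization. With median scaling even the lower HSC array exceeded the highest fraction array by 1.69 on the log2 scale.

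Among 4 tested sialomucin relatives and binding partners of CD34, 0 were called between CD31+ B220+ and CD31+ B220- cells (35.3% of all genes), 1 was higher in CD31+ B220+ than in CD31- B220- cells (22.4%), and 0 were called between the B220- fractions (28.1%). At limma's unadjusted p under 0.05 these counts were 0, 2 and 1. The gene called after adjustment, Crkl, an adaptor that binds CD34, lost its call under median scaling (adjusted p = 0.0717). The call was also lost without any single CD31+ B220+ array and without CD31- B220- replicate 2 or 3 (adjusted p from 0.0548 to 0.104). Podxl, the podocalyxin gene of the same family, was detected on both HSC arrays and on 1 of the 9 fraction arrays. It therefore passed the filter only through HSC.

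Cd27 gave the largest range among the known markers. Its brightest probe read 12.96 and 12.86 in HSC. CD31+ B220- arrays read 10.09, 10.27 and 10.45. The CD31+ B220+ arrays read 6.50, 6.93 and 7.13, and the CD31- B220- arrays 5.78, 4.99 and 5.63, with detection on 2 of the 3. No groups overlapped, in the order HSC, CD31+ B220-, CD31+ B220+ and CD31- B220-. CD31+ B220- cells were 10.7-fold above CD31+ B220+ cells (log2 difference -3.41, adjusted p = 8.67e-07) and 27.9-fold above CD31- B220- cells (4.80, adjusted p = 1.12e-07). CD31+ B220+ cells were 2.62-fold above CD31- B220- cells (1.39, adjusted p = 0.000523). HSC were 6.23-fold above CD31+ B220- cells.

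A second Cd27 probe, fitted beside all other probes, gave the same step for CD31+ B220- cells, with differences of -3.00 from CD31+ B220+ (adjusted p = 4.24e-07) and 3.23 from CD31- B220- cells (adjusted p = 3.53e-07). It did not separate CD31+ B220+ from CD31- B220- cells, at 0.23 (adjusted p = 0.373), where it was detected on no array of either fraction. The third probe was detected on 3 of the 11 arrays and gave no call. The lower of the Cd27 steps therefore rests on a single probe.

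Other TNF receptors were called in both directions. Of 17 tested genes in the list of the CD27 axis and its receptor family, 8 were higher and 6 lower in CD31+ B220+ than in CD31+ B220- cells (16.8% and 18.5% of all genes), and 10 were higher and 7 lower than in CD31- B220- cells (22.4% and 22.5%). Between the B220- fractions 3 were higher and 1 lower in the CD31+ one (16% and 12.1%). Tnfrsf13c, the BAFF receptor of B cells, and Cd40, a B cell and antigen-presenting cell receptor, were 19.7-fold and 10.4-fold higher in CD31+ B220+ than in CD31+ B220- cells. Tnfrsf1a, a widely used TNF receptor, was detected on no CD31+ B220+ array and was at least 6.86-fold higher in CD31+ B220- cells (adjusted p = 3.4e-06). Tnfrsf18, the costimulatory receptor GITR, was 3.57-fold higher in CD31+ B220- than in CD31- B220- cells (adjusted p = 0.00395).

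Over the 9 fraction arrays Cd34 and Cd27 correlated at r = 0.917, a description in which arrays of a gate share their sort and so mostly repeat the group means. Across all 11 arrays the genes most like Cd34 were Pf4, encoding platelet factor 4 (r = 0.983), Itga2b, encoding the integrin CD41 (0.973), and Kcnk12, a potassium channel gene (0.968). Over the fractions alone they were Pf4 (0.975) and C1qc, a complement gene (0.973). For Cd27 they were Zfp523 (0.989), Zfp704 (0.988) and Adgrl4, an endothelial adhesion receptor gene (0.980), and over the fractions alone Zfp523 (0.992) and Psat1, an enzyme of serine synthesis (0.985). Markers of several other cell types were also higher in CD31+ B220- cells. Of 5 T and NK cell genes tested, 4 (the CD3 genes among them) were higher there than in either other fraction, and the summed signal of the 8 with a probe was 2769 to 5148 against 220.9 to 320.0 and 285.7 to 781.0, with Cd8a and Cd4 and the NK genes Klrb1c and Ncr1 undetected in all 3 fractions. All 4 basophil and mast cell genes tested were higher there too, at a summed signal of 3148 to 3993 against 188.2 to 255.2 and 311.2 to 676.3, with Ms4a2 undetected. Of 6 megakaryocyte genes, 5 were higher than in CD31+ B220+ cells and 3 higher and 1 lower than in CD31- B220- cells. Their sum was 990.2 to 1353 against 154.2 to 202.5 and 831.8 to 1255. HSC arrays detected all 6, at a sum of 3183 to 3760, so this list does not set megakaryocytes apart from HSC. Pf4 and Itga2b, both in it, averaged 10.06 and 8.51 in HSC and 9.20 and 7.81 in CD31+ B220- cells. The T and NK sum in HSC was 531.2 to 774.8, and the basophil and mast cell sum 286.6 to 299.6. Of 9 endothelial genes tested, 5 were higher and 1 lower in CD31+ B220- than in CD31+ B220+ cells. Against CD31- B220- cells 4 were higher and 1 lower. Monocyte and neutrophil markers, given below for the Tmem176 genes, were also higher in CD31+ B220- than in CD31+ B220+ cells. The part of any of these cells in the Cd34 and Cd27 signals was not tested.

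**Figure D2:**
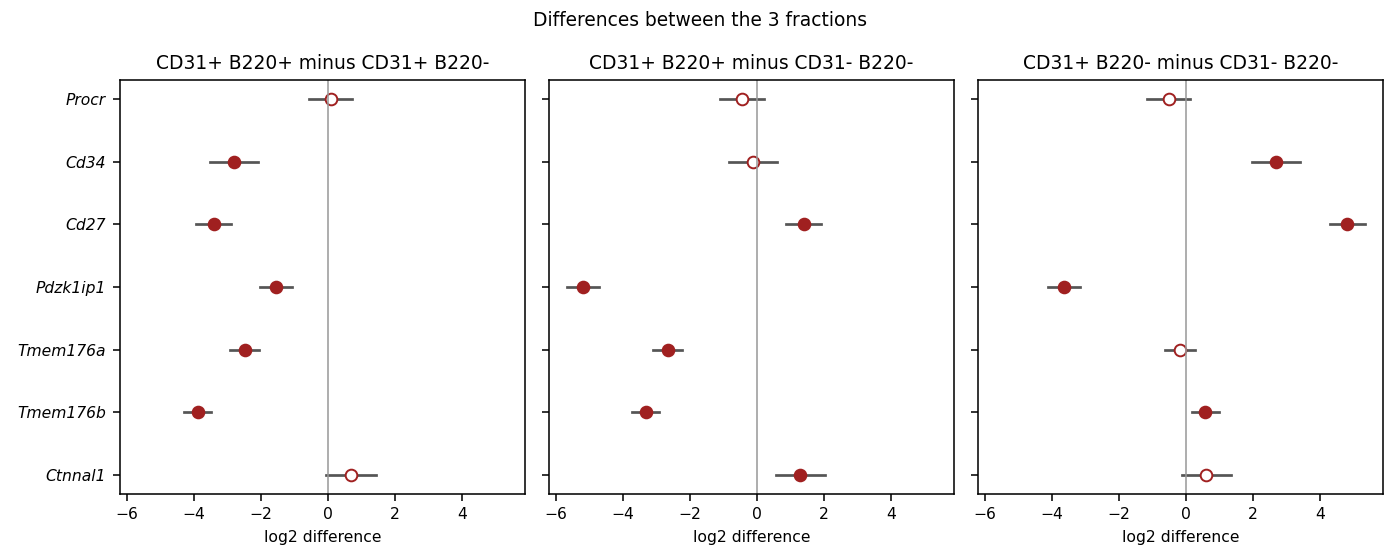
Log2 differences between the 3 fractions for the 7 genes, first-named fraction minus second. Points are differences from the fit over all arrays, lines are 95% intervals, and filled points passed an adjusted p under 0.05 over 11381 genes. Cd34 and Cd27 stand highest in CD31+ B220- cells, Pdzk1ip1 in CD31- B220- cells, and both Tmem176 genes are lower in CD31+ B220+ cells than in the others.

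Pdzk1ip1 was carried most highly, outside HSC, by CD31- B220- cells. HSC arrays gave 11.12 and 11.52. The CD31- B220- arrays came next at 10.44, 10.16 and 10.35. CD31+ B220- arrays read 6.81, 6.56 and 6.66, and the CD31+ B220+ arrays, at 5.48, 5.23 and 4.67, did not detect it. The 4 groups did not overlap. CD31- B220- cells (10.32 ± 0.14, SD, n = 3) exceeded CD31+ B220- cells 12.5-fold (log2 difference -3.64, adjusted p = 3.96e-07) and CD31+ B220+ cells at least 27.8-fold (adjusted p = 8.99e-09). CD31+ B220- cells exceeded CD31+ B220+ cells at least 2.23-fold (adjusted p = 0.00021). HSC were 2.00-fold above CD31- B220- cells and 25.0-fold above CD31+ B220- cells.

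The gene next to Pdzk1ip1 on chromosome 4 is Tal1, with no protein-coding gene between them in the RefSeq annotation, and it showed the same order among the fractions. Tal1 encodes a helix-loop-helix transcription factor of HSC and of the erythroid and megakaryocyte lineages. HSC arrays gave 11.03 and 11.19 and CD31- B220- arrays 11.35, 11.33 and 10.94. The CD31+ B220- arrays gave 6.96, 7.67 and 8.05, and the CD31+ B220+ arrays, at 5.59, 4.86 and 4.72, did not detect it. In contrast to Pdzk1ip1, the CD31- B220- arrays of Tal1 overlapped with the HSC arrays, and the difference of 0.10 (95% interval -0.63 to 0.83) was not called (adjusted p = 0.823). CD31- B220- cells exceeded CD31+ B220- cells 12.5-fold (adjusted p = 3.97e-06) and CD31+ B220+ cells at least 51.6-fold (adjusted p = 2.39e-08). Over the 11 arrays the genes correlated at r = 0.973, which ranked Tal1 in place 12 among 11380 genes by likeness to Pdzk1ip1, and over the 9 fraction arrays at 0.982, in place 32. The other tested gene of the partner and neighbour list, Cyp4b1, was called in no comparison.

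The start of Pdzk1ip1 is shown because TAL1 is known to bind, with partner proteins, to DNA letters of the E-box kind, CANNTG. The window runs from 250 bases before the start site to 50 after it, chr4:115088458-115088757 of GRCm38.p6 on the plus strand, from RefSeq, with E-boxes in capitals:

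Pdzk1ip1: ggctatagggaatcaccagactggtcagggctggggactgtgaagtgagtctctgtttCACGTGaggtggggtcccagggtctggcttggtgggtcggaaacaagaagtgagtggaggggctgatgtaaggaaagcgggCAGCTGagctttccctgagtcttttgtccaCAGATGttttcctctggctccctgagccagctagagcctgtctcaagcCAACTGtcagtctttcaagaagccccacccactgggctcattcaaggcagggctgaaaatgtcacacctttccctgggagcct

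It holds 4 E-boxes, at -192, -111, -81 and -33 from the start site. Such letters are common: of 32851 promoter windows of the same length, 72.3% held at least 1, and so did 8 of the 10 windows of the 7 genes. The GATA letters AGATAA, the ETS letters CCGGAAG and the RUNX letters TGTGGT, each searched on its own on both strands, were in 0 of the 10 windows, against 11.2%, 8.86% and 16.8% of all windows. A match is a description of the letters, not a binding site.

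By likeness across 11 arrays Pdzk1ip1 was closest to Tfr2, encoding transferrin receptor 2 (r = 0.990), Mettl27 (0.984) and Bex4 (0.979). Over the fractions alone it was closest to 2310022B05Rik (0.997) and Gypc, encoding the red cell membrane protein glycophorin C (0.996). Erythroid markers moved with these values. In CD31- B220- arrays all 8 erythroid genes tested exceeded each other fraction and HSC, with a summed signal of 34750 to 50380 on those arrays, 2489 to 2561 on CD31+ B220- arrays, 3005 to 3387 on CD31+ B220+ arrays and 3889 to 4396 in HSC. Of 4 tested stromal genes 3 were also higher in CD31- B220- cells than in either other fraction, the 7 with a probe summing to 3509 to 5916 against at most 676.1 on any other array. The part of erythroid and stromal cells in the Pdzk1ip1 signal of CD31- B220- cells was not tested.

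**Figure D3:**
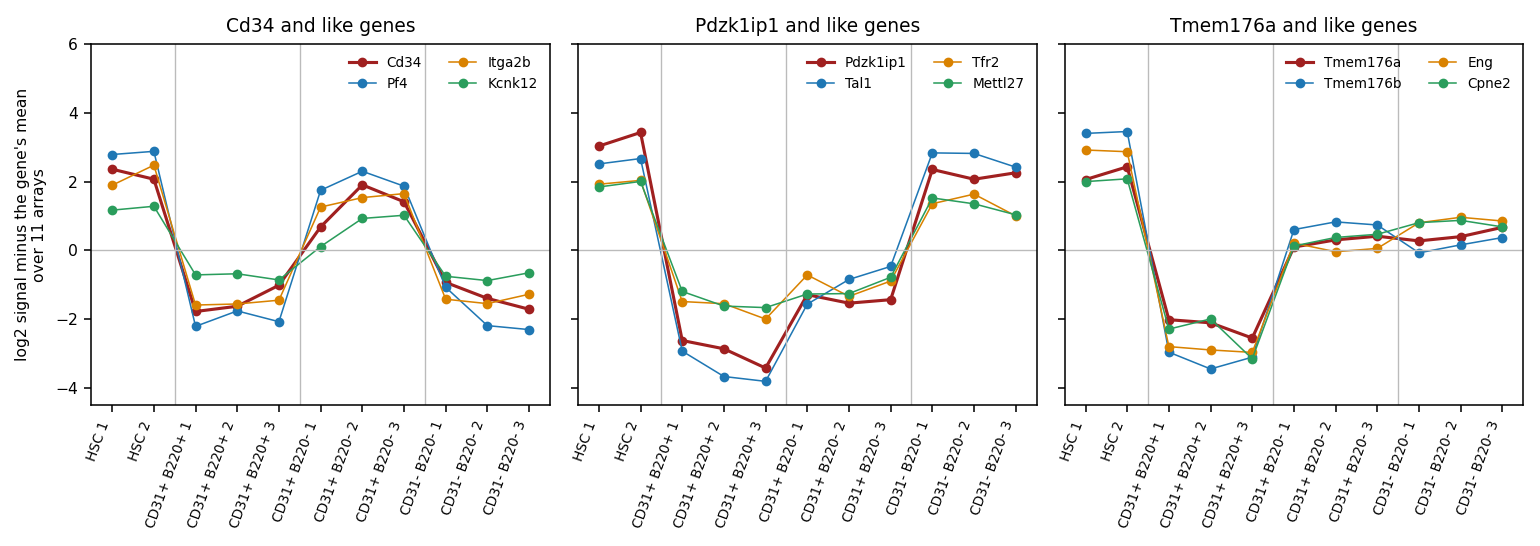
Log2 signal on each array minus the mean of that gene over the 11 arrays, for Cd34, Pdzk1ip1 and Tmem176a (thick lines) and genes of similar pattern (thin lines), with Tal1, the neighbour of Pdzk1ip1, in the middle panel. Vertical lines divide the groups. The Cd34 panel rises again in CD31+ B220- arrays, the Pdzk1ip1 panel in CD31- B220- arrays and the Tmem176a panel in both.

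Tmem176a and Tmem176b were higher in both B220- fractions than in the B220+ one. For Tmem176a HSC arrays read 9.35 and 9.73. The CD31+ B220- arrays read 7.40, 7.60 and 7.71 and the CD31- B220- arrays 7.57, 7.70 and 7.97, while CD31+ B220+ arrays, at 5.29, 5.19 and 4.75, did not detect it. The B220- fractions overlapped with each other and with no other group. They exceeded CD31+ B220+ cells at least 4.15-fold (adjusted p = 2.74e-06) and at least 4.69-fold (adjusted p = 7.27e-07) and differed from each other by -0.18 (95% interval -0.62 to 0.26, adjusted p = 0.574). A dimmer Tmem176a probe, detected on 6 arrays, gave differences of the same direction from CD31+ B220+ cells that were not called (adjusted p = 0.124 and 0.305).

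Tmem176b was the brighter of the pair by its probe and was detected on all 11 arrays. HSC arrays read 12.69 and 12.74. CD31+ B220- arrays read 9.90, 10.12 and 10.03, CD31- B220- arrays 9.22, 9.45 and 9.66, and CD31+ B220+ arrays 6.34, 5.85 and 6.19. The 4 groups did not overlap. CD31+ B220+ cells were 14.8-fold below CD31+ B220- cells (log2 difference -3.89, adjusted p = 5.96e-08) and 9.99-fold below CD31- B220- cells (-3.32, adjusted p = 5.77e-08). CD31+ B220- cells were 1.48-fold above CD31- B220- cells (0.57, adjusted p = 0.0377), a call that 10 of 22 alternative settings ended, with adjusted p-values from 0.00563 to 0.137. HSC were 6.50-fold above CD31+ B220- cells, 9.66-fold above CD31- B220- cells and 96.5-fold above CD31+ B220+ cells.

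By a start site of each, the pair lies head to head on chromosome 6. The full annotated span of Tmem176b reaches further and takes in all of Tmem176a. Tmem176a is read from the plus strand and Tmem176b from the minus strand, and RefSeq places a start site of each 109 bases apart, so that their promoter windows share 208 bases. The stretch is shown because both genes, which followed each other at r = 0.971 over the 9 fraction arrays and 0.984 over all 11, begin in it. It is chr6:48841233-48841532 of GRCm38.p6 on the plus strand, from RefSeq, with capitals marking the bases from the Tmem176b start site up to the Tmem176a start site:

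Tmem176a and Tmem176b: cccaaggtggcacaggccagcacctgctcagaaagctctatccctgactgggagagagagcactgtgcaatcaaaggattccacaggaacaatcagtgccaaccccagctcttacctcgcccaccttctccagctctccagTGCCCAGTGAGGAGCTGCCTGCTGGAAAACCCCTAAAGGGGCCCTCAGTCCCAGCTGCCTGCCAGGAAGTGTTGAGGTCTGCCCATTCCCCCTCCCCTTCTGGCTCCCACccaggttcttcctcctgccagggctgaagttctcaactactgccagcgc

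Each gene has further annotated starts, 2 windows for Tmem176a and 3 for Tmem176b in all, and the probes do not tell the starts apart.

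Genes most like Tmem176a over 11 arrays were Eng, encoding endoglin (r = 0.987), Tmem176b (0.984) and Cpne2 (0.982). Over the fractions alone they were Csf1r, the macrophage growth factor receptor gene (0.996), and Aifm2 (0.995). For Tmem176b they were Igf1r (0.993), Scamp1 (0.992) and Smyd2 (0.992), and over the fractions alone F13a1, encoding the A chain of coagulation factor XIII (0.998), and Fcer1g, the Fc receptor gamma chain gene (0.997). Mean log2 signals of Csf1r were 10.09 and 10.06 in the B220- fractions and 5.12 in HSC, and those of F13a1 were 13.76, 13.14 and 7.47. Monocyte and macrophage markers moved with the pair among the fractions: all 7 tested were higher in CD31+ B220- and 6 of 7 higher in CD31- B220- than in CD31+ B220+ cells, at a summed signal of 23730 to 27320, 22940 to 25460 and 441.8 to 929.6. In HSC that sum was 1913 to 2438, and Csf1r, Adgre1, Ccr2 and Itgam were undetected. Neutrophil markers moved with the pair too, all 7 tested being lower in CD31+ B220+ cells than in either B220- fraction, at a summed signal of 1269 to 5871 against 45660 to 49360 (CD31+ B220-) and 21100 to 55050 (CD31- B220-), and 4032 to 4812 in HSC. The part of monocytes, macrophages and neutrophils in the Tmem176 signals of the B220- fractions was not tested.

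The MS4A genes, whose 4-pass membrane proteins the TMEM176 proteins resemble, were mostly lower in the B220+ fraction. Of 8 tested, 1 was higher and 6 lower in CD31+ B220+ than in CD31+ B220- cells (16.8% and 18.5% of all genes), and 1 higher and 5 lower than in CD31- B220- cells (22.4% and 22.5%). Median differences were -2.63 and -2.16, beside 0.01 and 0.02 over all genes. The one that was higher was Ms4a1, encoding the B cell protein CD20, 19.8-fold and 16.1-fold. Ms4a6d, a gene of macrophages, was detected on no CD31+ B220+ array and was at least 27.2-fold and 27.7-fold lower there (adjusted p = 2.68e-08 and 7.01e-09). Ms4a3, a gene of granulocyte and monocyte progenitors, stood 8.48-fold higher in CD31+ B220- than in CD31- B220- cells (adjusted p = 0.00126).

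Ctnnal1 had its highest fraction level in CD31+ B220+ cells. HSC arrays gave 10.24 and 10.12. The CD31+ B220+ arrays gave 7.67, 7.74 and 7.67, the CD31+ B220- arrays 7.30, 6.62 and 7.14, and the CD31- B220- arrays 7.01, 6.74 and 5.49. All 11 arrays detected it. The B220+ fraction overlapped with neither B220- fraction, and those overlapped with each other. CD31+ B220+ cells were 2.44-fold above CD31- B220- cells (log2 difference 1.28, 95% interval 0.55 to 2.02, adjusted p = 0.00821). The call was lost when the probes of each gene were averaged (0.32, adjusted p = 0.15). Differences of 0.68 from CD31+ B220- cells (adjusted p = 0.144) and of 0.61 between the B220- fractions (adjusted p = 0.217) were not called. Without CD31- B220- replicate 3, the lowest array, the first of these passed with an adjusted p of 0.0199 at the same difference. HSC were 5.60-fold above CD31+ B220+, 8.97-fold above CD31+ B220- and 13.6-fold above CD31- B220- cells. Of the other probes, 1 was detected on 3 arrays and gave no call, and 1 on none.

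The list set beside Ctnnal1 held its relatives alpha-catenin and vinculin with other catenins, cadherins, talin and Akap13. Of 9 tested, 0 were higher and 5 lower in CD31+ B220+ than in CD31+ B220- cells (16.8% and 18.5% of all genes), and 0 higher and 4 lower than in CD31- B220- cells (22.4% and 22.5%). Ctnna1, Vcl and Ctnnd1 were lower in both comparisons, Cdh1 and Cdh5, which are cadherin genes, in the first, and Tln1, encoding talin, in the second. Ctnna1, encoding alpha-catenin, was 2.08-fold and 2.09-fold lower in CD31+ B220+ cells (adjusted p = 0.001 and 0.000585). Ctnnd1, encoding p120 catenin, was detected on no CD31+ B220+ array and was at least 1.88-fold and 1.87-fold lower there. Across the 9 fraction arrays Ctnnal1 correlated at r = -0.746 with Pdzk1ip1 and -0.752 with Tmem176a. By likeness over 11 arrays it was closest to Prmt2, an arginine methyltransferase gene (0.973), Guf1 (0.968) and Cfap97 (0.962), and over the fractions to Far1 (0.973) and Zc3h14 (0.964). B lineage markers were highest in CD31+ B220+ cells, at a summed signal of 46720 to 47520 against 7535 to 10930 in CD31+ B220- and 516.6 to 873.5 in CD31- B220- cells. In HSC that sum was 1037 to 1110 and Pax5, Ebf1, Blnk, Rag1 and Cd22 were undetected. Of 5 plasmacytoid dendritic cell genes, 2 were higher in CD31+ B220+ than in CD31+ B220- and 4 higher than in CD31- B220- cells, at a summed signal of 20030 to 21370, 4461 to 6026 and 1973 to 2899. The part of B lineage and dendritic cells in the Ctnnal1 signal of the B220+ fraction was not tested.

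Other genes of the stem cell surface gave a setting for the 7. The list held 31, of which 29 had a named probe and 24 were tested, and HSC had the highest mean for 15 of the 24, beside 33.7% of all genes. Kit and Slamf1, which encodes CD150, are markers of the HSC gate, so the sort bears on them. Adgrg1 and Jam3 were detected on both HSC arrays and on no fraction array, and Tek on both HSC arrays and 1 fraction array. These genes therefore passed the filter only through HSC. The list was also chosen with earlier results known, so its counts against HSC are a description. Against HSC 4, 4 and 2 of the 24 were higher and 17, 15 and 17 lower, taking the fractions in the order CD31+ B220+, then CD31+ B220-, then CD31- B220-, where 18.6%, 17.6% and 20.9% of all genes were higher and 25.6%, 23.7% and 28.3% lower. Median differences were -2.27, -1.42 and -1.55, and -0.03, -0.06 and -0.05 over all genes. When arrays were scaled to a common median in place of quantile normalization, the medians over all genes moved to -1.21, -1.12 and -1.06. The list then gave 0, 0 and 1 higher and 21, 20 and 21 lower, so most calls above HSC depend on the scaling. Esam, an adhesion molecule of endothelium and HSC, was 23.4-fold lower than HSC in CD31+ B220- cells and at least 128-fold and 131-fold lower in the other fractions. Robo4, a guidance receptor of endothelium and HSC, was 17.6-fold lower in CD31+ B220- cells and at least 54.8-fold lower in CD31- B220- cells. Cxcr4, the receptor for the chemokine CXCL12 that holds HSC in marrow, was higher than HSC in each fraction under quantile normalization, 3.85-fold in CD31+ B220+ cells.

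Among the fractions, more of these genes were higher in CD31+ B220- cells than lower. In CD31+ B220+ cells 5 of the 24 were higher and 10 lower than in CD31+ B220- cells (16.8% and 18.5% of all genes), and 7 were higher and 7 lower than in CD31- B220- cells (22.4% and 22.5%), while 10 were higher and 2 lower in CD31+ B220- than in CD31- B220- cells, where 16% and 12.1% of all genes were. Thy1, a surface marker of T cells and at low levels of HSC, was at least 17.3-fold higher in CD31+ B220- than in CD31+ B220+ cells (adjusted p = 6.11e-08) and 8.32-fold higher than in CD31- B220- cells. Esam followed Cd34, detected on all 3 CD31+ B220- arrays and on no other fraction array, at least 5.46-fold and 5.60-fold above the other fractions. Eng was detected in both B220- fractions and not in CD31+ B220+ cells. It was 1.74-fold lower in CD31+ B220- than in CD31- B220- cells (adjusted p = 0.00197). Cd93, a C-type lectin-like receptor of early B cells, endothelium and progenitors, was 2.49-fold higher in CD31+ B220+ than in CD31+ B220- cells (adjusted p = 0.00387). Cd82, a tetraspanin, was 3.84-fold lower in CD31+ B220- than in CD31- B220- cells (adjusted p = 3.39e-05).

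**Figure D4:**
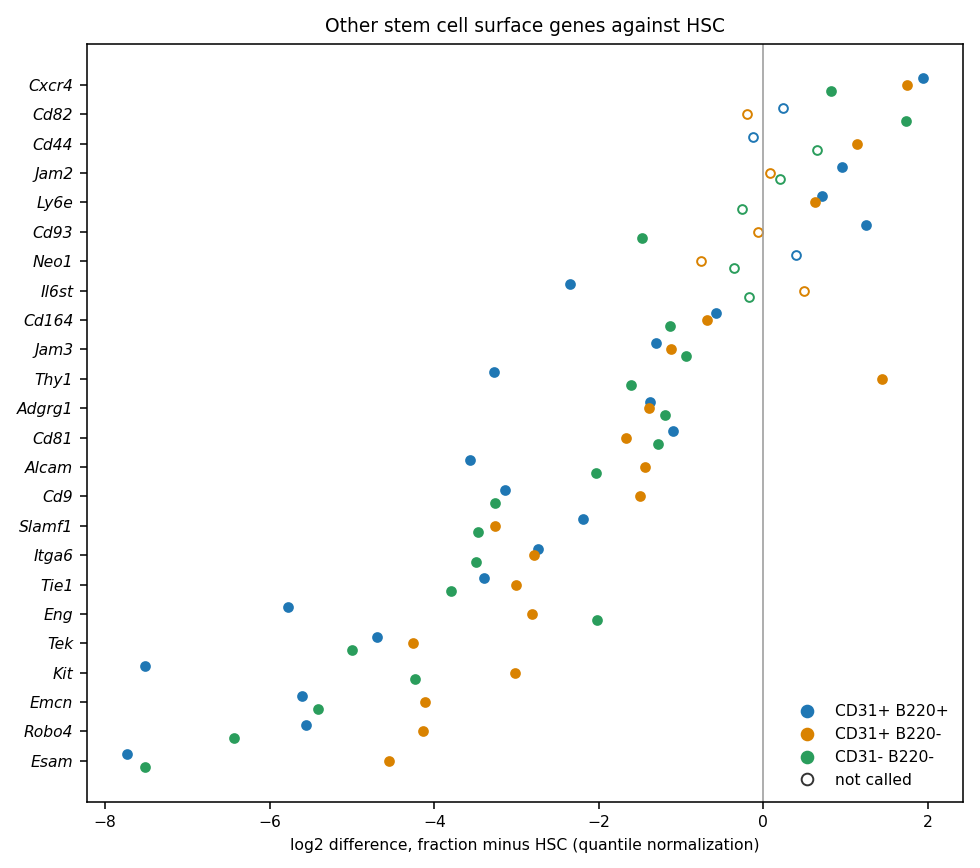
Log2 differences of each fraction from HSC for the 24 tested genes of the stem cell surface list, after quantile normalization, sorted by their mean. Colours mark the fraction, and open points did not pass an adjusted p under 0.05. Most points lie below 0, down to Esam. Those above 0 are led by Cxcr4, and most calls above 0 depend on the scaling.

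Surface genes of committed progenitors and mature blood cells form the other list. The HSC gate leaves out CD48+ cells, and Itgam encodes part of Mac-1, a common lineage marker, so the sort bears on Cd48 and Itgam, which HSC arrays did not detect. Of the 10 tested, 0 had the highest mean in HSC (33.7% of all genes). With the fractions in the same order, 8, 9 and 8 were higher and 0, 0 and 1 lower than HSC. Of all genes 18.6%, 17.6% and 20.9% were higher and 25.6%, 23.7% and 28.3% lower. With median scaling 8, 7 and 6 were higher, where 9.24%, 10.8% and 13.4% of the calls over all genes were in that direction. Fcgr2b, an inhibitory Fc receptor of B and myeloid cells, was 24.3-fold, 34.5-fold and 23.9-fold above HSC, and Cd52, a glycoprotein of mature leukocytes, 32.7-fold, 22.8-fold and 14.9-fold. Between fractions, Il7r, the interleukin 7 receptor of lymphoid progenitors, was 3.97-fold higher in CD31+ B220+ than in CD31+ B220- cells (adjusted p = 2.47e-05) and 15.7-fold higher in CD31+ B220- than in CD31- B220- cells (adjusted p = 1.78e-07). Fcgr3, a myeloid Fc receptor, was detected on no CD31+ B220+ array and was at least 26.4-fold and 17.9-fold lower there than in the B220- fractions.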

How the data were processed

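For each of 11 arrays the authors deposited a mean bead intensity per probe, not normalized, and a fraction headed as a detection p-value. The fraction rose with the intensity (Spearman 0.987 to 0.997) and was read as 1 minus that p. The deposited processed values were on a scale that matched log2, its base not given in the sources used here, and served as an alternative. Per the submitters' processing notes lumi 1.1.0 was used, with no role stated. Background was removed by normexp using these detection p-values, an offset of 16 was added, and quantile normalization and log2 followed (neqc, limma 3.58.1, R 4.3.3). Each gene took its brightest probe with a single symbol, and genes detected (p under 0.05) on at least 2 arrays were tested. All 11 arrays entered a fit with 1 mean per group, tested 2-sided by limma's moderated test with Benjamini-Hochberg adjustment over 11381 genes, and called at an adjusted p under 0.05. Folds written "at least" are bounds, for groups with no detected array: the bright mean minus the mean, over dim arrays, of whichever was higher, the value itself or the lowest detected signal. The number of arrays limits the precision.

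In data simulated for CD31+ B220+ against CD31+ B220- cells over 11381 genes, 48% of changes of 1 and 95% of changes of 2 on the log2 scale were recovered. Each size was given to 100 genes, while the real comparison called 35.3% of all genes, so these rates hold for the simulated setting alone. The members and lists were chosen with earlier results of these data known. Named were the 7 genes; per gene the 3 most correlated over 11 arrays and the 2 over 9; and per list up to 2 of the largest called changes in each direction between fractions and up to 2 highest and 2 lowest against HSC in all 3 comparisons. Kit, Slamf1, Crkl, Cyp4b1, Cd48, Itgam, members of the catenin count and marker genes were named outside that choice as the sort markers or lone genes of a count, and Tal1, in a list, also as a neighbour. Adgrg1, Jam3 and Tek were named outside it because they passed the filter only through HSC. Promoters came from RefSeq (GRCm38.p6), with all 7 genes matched. Alternatives were other background corrections, median scaling, the deposited values, an offset of 50, no filter, the mean of a gene's probes, the compared groups alone, the replicate number as a block and leaving out each array. Fitting all probes singly and a spread following the mean level were added after the data were seen. Figures were drawn with matplotlib 3.10.9.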

Additional observations from a re-analysis of the deposited data

How the results depend on the processing

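Of the member differences, 441 of 462 alternative values kept both direction and side of the threshold, and the 4 counts of members called stayed within 1.5 times of the reported ones. Calls on Cd34, Cd27, Pdzk1ip1 and Tmem176a were kept under every alternative run. The Tmem176b difference between the B220- fractions lost its call under median scaling (adjusted p = 0.126), with the deposited values (0.0696), in the compared groups alone (0.0671), with all probes singly (0.0573), and without CD31+ B220- replicate 1, 2 or 3 or CD31- B220- replicate 1 or 2. Ctnnal1 between CD31+ B220+ and CD31+ B220- cells gained a call with no background correction (0.40, adjusted p = 0.0496) and in the compared groups alone (adjusted p = 0.0412).

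Uncalled differences changed sign in 5 cases. Averaging the probes of a gene gave -0.0543 for Ctnnal1 and 0.0345 for Tmem176a between the B220- fractions, and -0.0844 for Procr between CD31+ B220+ and CD31+ B220- cells. Cd34 between CD31+ B220+ and CD31- B220- cells ranged from -0.3579 to 0.085 when 1 array was left out, above 0 without CD31+ B220+ replicate 1 and without CD31- B220- replicate 1. The cause was not tested.

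Under median scaling 8446 genes differed between CD31+ B220+ cells and HSC, against 5029, and 8298 between CD31+ B220- cells and HSC, against 4704. The share of calls that were higher fell to 9.24% from 42.1%, to 10.8% from 42.7% and, for CD31- B220- cells, to 13.4% from 42.4%, and between CD31+ B220+ and CD31+ B220- cells it was 36.3% against 47.5%. Leaving out 1 array gave 3349 to 5198 and 2876 to 4872 calls for the first 2 comparisons, the lowest of each without HSC replicate 1. Replicate numbers were not treated as pairing the arrays. After the group mean of each gene was taken out, 1 of 15 same-numbered pairs correlated above 0.1. In addition, 3 of 11 arrays correlated best with their own number. With the replicate block 3880, 5015 and 3052 genes were called between fractions, against 4015, 5102 and 3199, and among the members Tmem176b alone lost a call, between the B220- fractions (adjusted p = 0.0567).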
